A study of Mus musculus with 8 samples.

Results

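A set of 9 genes known from pancreatic progenitors or from dedifferentiated β cells was followed in islets with and without active Notch. The set was chosen by symbol, as Neurog3, Sox9, Sox4, Sox11, Onecut1, Aldh1a3, Gast, Myc and Mycl, and every member was found among the 32531 gene symbols of the count table. Islet RNA came from 4 control mice and 4 β-tetO-NICD mice, all of which had taken doxycycline (Dox) for 8 weeks in drinking water. Both groups carried RIP-Cre, which drives Cre from an insulin promoter, and Rosa26-rtTA, the Dox-dependent activator that Cre switches on. β-tetO-NICD mice also carried tetO_NICD, a Dox-responsive transgene for NICD, the part of Notch1 that is released inside the cell and acts on genes, and controls did not. The mice were of a mixed C57BL/6J, 129X1/SvJ and BALB/c background, and their age is not stated in the labels. Whole islets were sequenced, so β cells were mixed with other islet cells. A lower level may come from fewer cells of a type or from less RNA per cell, and bulk RNA cannot tell these apart.

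In the embryo, the transcription factor Neurog3 commits a pancreatic progenitor to an endocrine fate. Notch holds progenitors back from that step, since its Hes repressors act on Neurog3, while Sox9 and Onecut1 belong to the factors that progenitors use to turn Neurog3 on. Adult β cells carry little of these transcripts. Stressed or diabetic β cells can lose mature features without dying, which is called dedifferentiation, and Neurog3, the aldehyde dehydrogenase Aldh1a3, gastrin and the Myc family gene Mycl are among the genes known to be found in such cells.

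Promoter sequences from RefSeq (GRCm38.p6) matched 6 of the 9 genes, namely Neurog3, Sox4, Sox11, Onecut1, Gast and Mycl. The stretches upstream of the start of Neurog3 and Sox11, the genes with the strongest statistical support, and of Sox4, a close relative of Sox11, are printed 5′ to 3′ on the strand of the gene. Capitals mark each match to one of 4 motifs, searched on both strands within 250 bases before the RefSeq start. The Sox4 stretch is shortened to 236 bases, up to an annotated exon.
Neurog3, chr10:62132840-62133089, plus strand: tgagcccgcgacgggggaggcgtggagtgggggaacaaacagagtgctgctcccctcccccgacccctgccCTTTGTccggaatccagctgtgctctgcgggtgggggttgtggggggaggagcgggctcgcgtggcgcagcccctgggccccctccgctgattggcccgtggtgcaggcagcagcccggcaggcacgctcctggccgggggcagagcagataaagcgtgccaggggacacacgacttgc
Sox11, chr12:27342719-27342968, minus strand: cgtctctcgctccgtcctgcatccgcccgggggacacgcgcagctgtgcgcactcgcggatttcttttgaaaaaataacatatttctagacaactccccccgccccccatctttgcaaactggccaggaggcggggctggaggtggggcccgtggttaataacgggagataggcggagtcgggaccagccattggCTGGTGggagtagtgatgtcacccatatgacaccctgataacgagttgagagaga
Sox4, chr13:28953714-28953949, minus strand: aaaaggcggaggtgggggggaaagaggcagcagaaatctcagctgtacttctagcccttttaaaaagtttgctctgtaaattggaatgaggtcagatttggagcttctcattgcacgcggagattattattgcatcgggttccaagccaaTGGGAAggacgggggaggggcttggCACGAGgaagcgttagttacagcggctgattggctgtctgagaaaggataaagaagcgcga
The motif bound by Rbpj, the DNA-binding partner of NICD, was searched as TGGGAA and was found in Sox4, from 100 to 95 bases before the start. The N-box bound by Hes proteins, CACNAG, was found in Sox4 from 75 to 70 bases and in Sox11 from 55 to 50 bases before the start. It also occurred in the window of Mycl. The SOX motif ACAANG was found in Neurog3, and the E-box CACGTG in Onecut1. These letters are common, since 21.6% of 32851 promoter windows of this length held the Rbpj motif, 36.7% the N-box, 36.3% the SOX motif and 6.02% the E-box. A match is a description of the sequence and no evidence of binding.

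Library totals ran from 22430941 to 25950164 counts in controls and from 21701223 to 26413146 in β-tetO-NICD islets. Levels are given as CPM, counts scaled to library size after TMM normalization, which allows for differences in library makeup. A count of 3, taken as the floor of detection, equals 0.0996 to 0.151 CPM, with counting error alone in view. Columns of β-tetO-NICD islets are numbered 1, 2, 4 and 5 while the mice are labelled 1 to 4, so libraries 4 and 5 have a group but no settled mouse. Notch1, part of which the transgene encodes, was 56.9 ± 10.7 CPM (SD, n = 4) in controls and from 574 to 1322 CPM across the β-tetO-NICD libraries, and the Notch targets Hes1 and Hey1 did not overlap between the groups. The libraries also differed within groups. Eif2s3y and Ddx3y, which lie on the Y chromosome, had 1809 to 3186 counts together in β-tetO-NICD library 5 and controls 2 and 4, and no more than 2 in the other 5 libraries, although the methods of the study name males for gene expression work. The length trend of each library used log2 CPM centered on each gene's mean over the 8 libraries. It is therefore relative to the other libraries. These relative levels rose with transcript length in controls 1, 2 and 4 and β-tetO-NICD library 1 (Spearman's rho across genes 0.418 to 0.497). They fell with it in control 3 and β-tetO-NICD libraries 2, 4 and 5 (−0.521 to −0.174).

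Sox11, Neurog3 and Aldh1a3 were higher in β-tetO-NICD islets, with fitted folds of 6.45, 3.29 and 3.21. Of the 9 genes, 7 had at least 10 counts in at least 4 libraries and were tested, and Onecut1 and Gast did not. With edgeR's quasi-likelihood fit and Benjamini-Hochberg adjustment over 15082 genes, 3 of the 7 tested genes rose and 0 fell at an adjusted p under 0.05, where 4.19% of all tested genes rose and 2.57% fell. At an unadjusted p under 0.05, 5 were higher and 1 was lower. The 4.19% and 2.57% do not apply to that threshold, and the share of all genes at it is not given here or for the lists below. DESeq2 called 4 higher and 1 lower, and limma-voom 3 higher and 0 lower. With the length trend as a covariate 2 were higher, and in the 5 libraries without Y-linked counts 0 were called. The median log2 fold change of the 7 genes was 0.98, beside 0.000714 over all genes tested. In 5 of the 9 genes, Gast among them, each β-tetO-NICD library lay above the highest control, and in 1, Myc, each lay below the lowest control. Of all tested genes 8.22% and 7.92% showed these patterns, shares that leave out genes under the count minimum such as Gast.

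**Figure D1:**
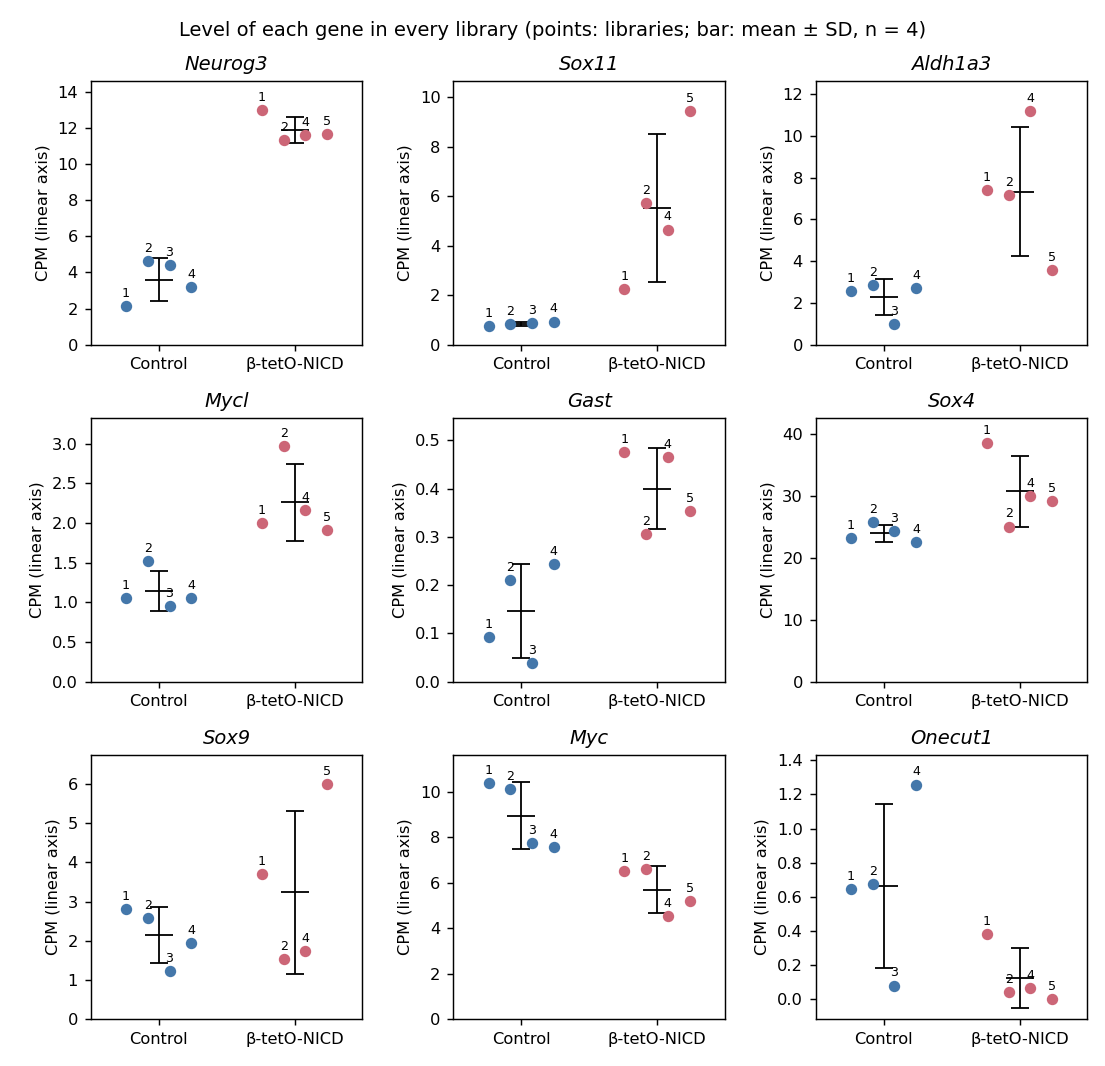
CPM of each gene on a linear axis in the 4 control and 4 β-tetO-NICD libraries, with the library number beside each point and a bar for the mean ± SD. The groups do not overlap for Neurog3, Sox11, Aldh1a3, Mycl, Gast and Myc, while they overlap for Sox4, Sox9 and Onecut1.

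Neurog3 (ENSMUSG00000044312, chromosome 10, 62133090 to 62134763, plus strand) encodes the basic helix-loop-helix factor that starts endocrine differentiation. It measured 2.12, 4.64, 4.43 and 3.21 CPM in controls 1 to 4. In β-tetO-NICD libraries 1, 2, 4 and 5 it measured 13.0, 11.3, 11.6 and 11.7 CPM. All β-tetO-NICD libraries lay above every control and close to each other, with a highest value 1.15 times the lowest, against 2.19 times among controls. The mean went from 3.60 ± 1.17 to 11.9 ± 0.740 CPM (SD, n = 4 per group), with counts of 46 to 112 against 232 to 349. The log2 fold change was 1.72 with a standard error of 0.25 and an adjusted p of 0.00438. It lay between 1.55 and 1.87, with an adjusted p of at most 0.0185, in the 8 fits that each left out 1 library. In the 5 libraries without Y-linked counts, 3 β-tetO-NICD and 2 controls, the log2 fold change was 1.87 and the adjusted p 0.0851. Neurog3 shares 273 exonic bases with Fam241b on the opposite strand, whose row under its older symbol 2010107G23Rik was also higher (log2 fold change 0.95, adjusted p = 0.0352), and whether the counting used strand is not given in the sources used here. Its relatives Neurog1 and Neurog2, proneural factors of the nervous system, had 0 counts in every library, which allows up to 0.151 CPM.

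Sox11 (ENSMUSG00000063632, chromosome 12, 27334264 to 27342574, minus strand) and Sox4 are SoxC transcription factors, found in developing endocrine cells and in many other immature tissues. Sox11 measured 0.738, 0.845, 0.870 and 0.934 CPM in controls 1 to 4. In β-tetO-NICD libraries 1, 2, 4 and 5 it measured 2.23, 5.72, 4.65 and 9.42 CPM. Controls were tightly grouped, and the β-tetO-NICD libraries, all above them, spread over a 4.22-fold range with library 1 lowest and library 5 highest. Its log2 fold change of 2.69, with a standard error of 0.41 and an adjusted p of 0.00564, was the largest in size among the 7 tested genes. It stayed past the threshold in all 8 fits that left out 1 library (log2 fold change 2.31 to 2.95), and its size was less with the duct marker level (2.03, adjusted p = 0.0248) or the length trend (1.85, adjusted p = 0.0489) as a covariate, and more with the length offset (3.31, adjusted p = 0.00612). It did not pass in the 5 libraries without Y-linked counts (2.38, adjusted p = 0.103). Beside the length trend, Sox11 averaged 0.839 CPM in the 3 controls whose relative levels rose with length, against 2.23 CPM in β-tetO-NICD library 1. It was 0.870 CPM in control 3 against a mean of 6.60 CPM in libraries 2, 4 and 5.

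Sox4 (ENSMUSG00000076431, chromosome 13, 28948919 to 28953713, minus strand) measured 23.1, 25.7, 24.3 and 22.6 CPM in controls 1 to 4. In β-tetO-NICD libraries 1, 2, 4 and 5 it measured 38.5, 25.02, 29.9 and 29.2 CPM. Of the 4 β-tetO-NICD libraries 3 exceeded the highest control, and library 2 lay within the controls. Sox4's log2 fold change of 0.36, with a 95% interval of 0.012 to 0.71 and an adjusted p of 0.149, did not pass the threshold. With an offset for the length trend of each library it passed (0.55, adjusted p = 0.0196). Sox4 shares 2616 exonic bases with Gm26735, a long noncoding gene on the opposite strand with no row under that symbol. Sox12, the remaining SoxC gene, averaged 22.6 ± 2.24 CPM in controls against 23.8 ± 0.986 CPM with NICD (SD, n = 4), and its log2 difference of 0.072 had an adjusted p of 0.716.

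Sox9 (ENSMUSG00000000567, chromosome 11, 112782224 to 112787760, plus strand) maintains pancreatic progenitors and remains on in adult duct cells. It measured 2.81, 2.58, 1.23 and 1.95 CPM in controls 1 to 4. The values in β-tetO-NICD libraries 1, 2, 4 and 5 were 3.71, 1.53, 1.73 and 6.00 CPM. Libraries 1 and 5 were above all controls and libraries 2 and 4 lay among them, so the groups overlapped. The log2 fold change of 0.59 had an adjusted p of 0.385 and a 95% interval from −0.44 to 1.63. Without library 5 it was 0.11. The summed level of duct cell markers overlapped between the groups, at 350 to 473 CPM among controls and 425 to 695 CPM among β-tetO-NICD libraries, and was highest in library 5. Of the 12 duct markers 11 were tested and 1, Ambp, rose, and of the defining markers Krt19 was 9.57 CPM in library 5 against 1.98 to 5.41 CPM elsewhere. No duct marker was at 0 counts in all libraries, and with the duct marker level as a covariate the log2 fold change of Sox9 was 0.18 (adjusted p = 0.890). In the 3 libraries with Y-linked counts, of which library 5 alone was β-tetO-NICD, the log2 fold change of Sox9 was 1.47. It is given without a test, since the 2 controls alone supply the spread. The SoxE relative Sox10, a glial factor, differed by −0.31 on the log2 scale (adjusted p = 0.487).

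**Figure D2:**
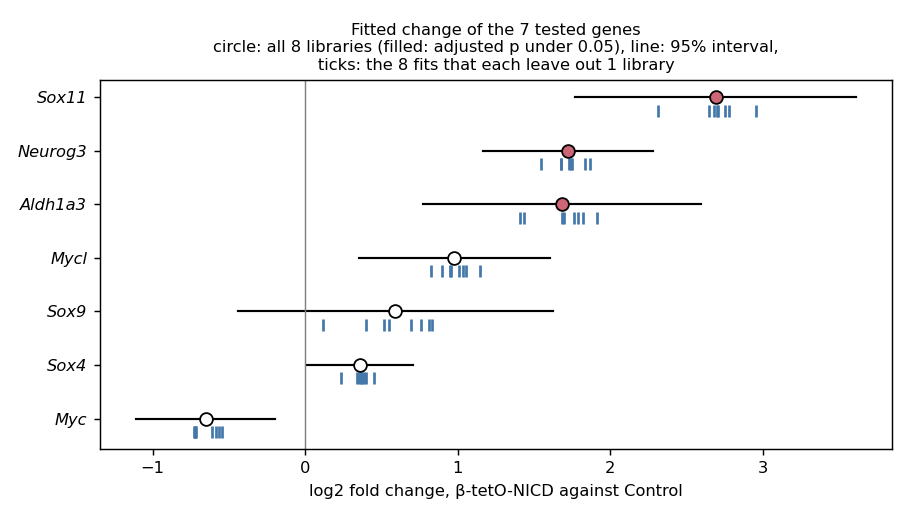
Fitted log2 fold change of the 7 tested genes, β-tetO-NICD against control, with the 95% interval as a line, filled circles for an adjusted p under 0.05 and ticks for the 8 fits that each leave out 1 library. The intervals of Sox11, Neurog3, Aldh1a3, Mycl and Sox4 lie above 0, the last by 0.012, that of Myc below it, and that of Sox9 spans 0.

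Onecut1 (ENSMUSG00000043013, chromosome 9, 74861921 to 74891781, plus strand) encodes a homeodomain factor upstream of Neurog3. It had 14, 16, 2 and 31 counts in controls 1 to 4. It had 8, 1, 2 and 0 counts in β-tetO-NICD libraries 1, 2, 4 and 5, where 0 counts allows up to 0.151 CPM. The 4 libraries whose relative levels rose with transcript length, controls 1, 2 and 4 and β-tetO-NICD library 1, held 8 to 31 counts. The 4 in which they fell held 0 to 2. Within the first set the control mean was 0.860 CPM against 0.380 CPM in library 1, and within the second, control 3 was at 0.0791 CPM against a mean of 0.0367 CPM. Controls held 63 counts in all and β-tetO-NICD islets 11, of which 8 were in library 1. The difference in mean log2 CPM was −1.83 (exact two-sided permutation p = 0.0571, 4 against 4), and between −2.45 and −1.44 when each library was left out in turn. It did not reach the threshold, and the adjusted p was 0.140 in an edgeR fit with no filter on low counts. Onecut1 shares 2171 exonic bases with the noncoding gene Gm20649 on the same strand. Its paralog Onecut2 differed by −0.34 on the log2 scale (adjusted p = 0.577), and Onecut3 was under the count minimum.

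**Figure D3:**
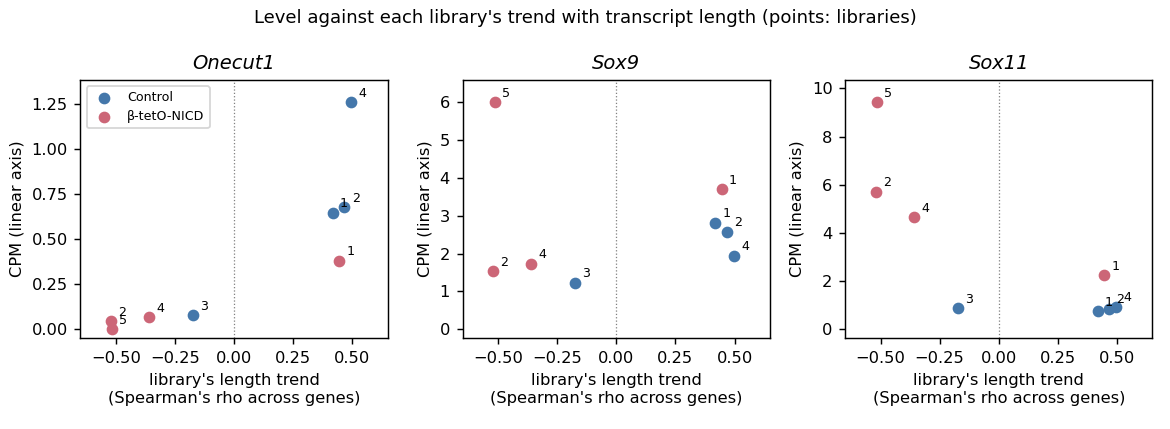
CPM of Onecut1, Sox9 and Sox11 on a linear axis against each library's length trend, with the library number beside each point. The trend is the Spearman correlation, across genes, of transcript length with log2 CPM centered on each gene's mean over the 8 libraries. Onecut1 is at or under 0.0791 CPM in the 4 libraries left of 0, while Sox11 is higher in β-tetO-NICD islets on both sides.

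Aldh1a3 (ENSMUSG00000015134, chromosome 7, 66390890 to 66427517, minus strand) makes retinoic acid from retinaldehyde and is a marker of failing β cells. It measured 2.58, 2.87, 0.989 and 2.72 CPM in controls 1 to 4. In β-tetO-NICD libraries 1, 2, 4 and 5 it measured 7.41, 7.16, 11.2 and 3.58 CPM. Each of these lay above every control, but library 5 was near to them, and control 3 was far below the other controls. Its log2 fold change was 1.68 with a standard error of 0.41 and an adjusted p of 0.0402. Calling it depended on the libraries used, since it passed in 2 of the 8 fits that left out 1 library, those without β-tetO-NICD library 1 or 5, and had an adjusted p up to 0.107 in the others. The call was also lost with the length trend (log2 fold change 2.19, adjusted p = 0.0603), the acinar marker level (1.76, 0.0524) or Y-linked counts (1.63, 0.0903) as a covariate, and in the 5 libraries without such counts (2.28, 0.104). In the 3 libraries with Y-linked counts, of which library 5 alone was β-tetO-NICD, the log2 fold change was 0.42, a value given without a test since the 2 controls alone supply the spread. Of 19 further genes of the retinoid pathway, 13 were tested and 0 passed edgeR's test in either direction, where 6.76% of all tested genes did. At an unadjusted p under 0.05, 6 were higher and 0 lower, and DESeq2 called 3 higher and limma-voom 0. Aldh1a1, which makes the same product, differed by 0.39 on the log2 scale (adjusted p = 0.346).

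Gast (ENSMUSG00000017165, chromosome 11, 100334407 to 100336996, plus strand) encodes gastrin, a hormone of the fetal pancreas and the adult stomach. It was near the floor, with 2, 5, 1 and 6 counts in controls 1 to 4. It had 10, 7, 14 and 7 counts in β-tetO-NICD libraries 1, 2, 4 and 5. All β-tetO-NICD libraries were above every control, at 0.306 to 0.475 CPM against 0.0396 to 0.244 CPM. Pooled, the ratio was 2.75 (38 against 14 counts, exact binomial 95% interval 1.46 to 5.50, counting error only). The exact two-sided permutation p was 0.0286, the smallest that 4 against 4 libraries allow, and the adjusted p in an edgeR fit with no filter was 0.163. Without any 1 of the β-tetO-NICD libraries the exact permutation p was 0.0571. Cck, the closest relative of gastrin, had at most 2 counts in any library. Of 8 further genes of the gastrin and cholecystokinin system, 6 were tested and Pcsk1, a convertase that cuts prohormones, fell (log2 fold change −1.07, adjusted p = 0.0446), while 0 rose. At an unadjusted p under 0.05 and by DESeq2, 1 was higher and 1 lower, and limma-voom called 0 higher and 1 lower. With the length trend as a covariate and in the 5 libraries without Y-linked counts, 0 were called lower. Over all genes tested 6.76% were called in either direction.

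Myc and Mycl, members of a family that drives growth and the making of ribosomes, had log2 fold changes of opposite sign, neither of which passed the threshold. Myc (ENSMUSG00000022346, chromosome 15, 61985391 to 61990374, plus strand) measured 10.4, 10.1, 7.76 and 7.59 CPM in controls 1 to 4. In β-tetO-NICD libraries 1, 2, 4 and 5 it measured 6.51, 6.59, 4.52 and 5.19 CPM. All of the latter lay below the lowest control. The log2 fold change was −0.65 with a standard error of 0.20 and an adjusted p of 0.0779, and it passed without β-tetO-NICD library 1 (adjusted p = 0.0335), with DESeq2 (0.0253) and with the length offset (0.0416).

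Mycl (ENSMUSG00000028654, chromosome 4, 122995652 to 123002485, plus strand) measured 1.06, 1.52, 0.950 and 1.06 CPM in controls 1 to 4. In β-tetO-NICD libraries 1, 2, 4 and 5 it measured 1.996, 2.97, 2.16 and 1.91 CPM. The groups did not overlap, and library 2 was highest. Its log2 fold change of 0.98, with a standard error of 0.28 and an adjusted p of 0.0636, was just short of the threshold, and passed without β-tetO-NICD library 1 (adjusted p = 0.0292), with DESeq2 (0.0186), with the length offset (0.0409) and among genes with at least 10 counts in every library (0.0397). The remaining paralog Mycn, typical of embryonic progenitors, differed by 1.14 on the log2 scale (adjusted p = 0.0729). In the wider MYC network 15 of 16 listed genes were tested, of which 1 fell, Mlxipl (log2 fold change −1.11, adjusted p = 0.0445), the glucose-sensing factor ChREBP, and 0 rose. At an unadjusted p under 0.05 the network had 2 higher and 4 lower genes, DESeq2 called 1 higher and 2 lower, limma-voom called 0 higher and 1 lower, and the median log2 fold change was −0.23. Of 22 growth genes that MYC proteins bind, 1 fell, the transferrin receptor gene Tfrc (log2 fold change −1.11, adjusted p = 0.0269), and 0 rose (2 higher and 3 lower at an unadjusted p under 0.05, 1 and 2 by DESeq2, 0 and 1 by limma-voom), with a median log2 fold change of 0.18. The calls, 1 of 15 and 1 of 22, stand beside 6.76% of all genes called in either direction. With the length trend as a covariate and in the 5 libraries without Y-linked counts, neither list had a call.

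Levels of different genes were compared per length, as CPM per kilobase of the longest GENCODE transcript. In controls the order began with Sox4 at 4.99 ± 0.288, Myc at 3.83 ± 0.640 and Neurog3 at 2.34 ± 0.761 (SD, n = 4). Aldh1a3, Sox9, Mycl and Gast followed between 0.665 and 0.319, with the mean ± SD of each overlapping that of its neighbor. Onecut1 at 0.168 ± 0.122 came next, within the spread of Gast, and Sox11 at 0.102 ± 0.00981 was lowest and within the spread of Onecut1. In β-tetO-NICD islets Neurog3 at 7.72 ± 0.480 and Sox4 at 6.40 ± 1.18 stood highest and were not separated by their spread, and Myc at 2.44 ± 0.436 and Aldh1a3 at 2.13 ± 0.903 followed and overlapped likewise. Gast, Sox9, Sox11 and Mycl lay between 0.869 and 0.645 and were not separated by their spread, and Onecut1 was last at 0.0310 ± 0.0440. The order is a description, since a transcript other than the longest may be the one expressed, and the length trend differed between libraries while the genes differ in length.

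**Figure D4:**
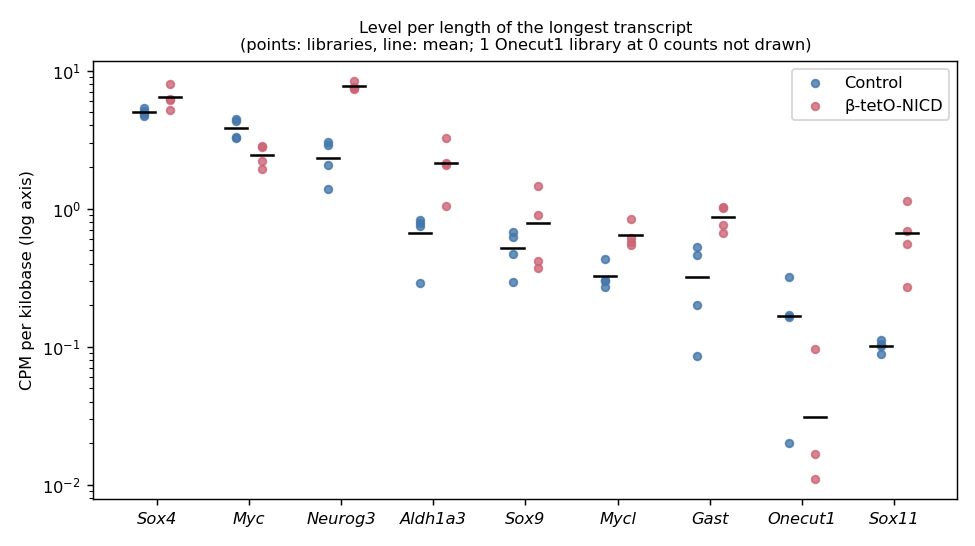
CPM per kilobase of the longest transcript on a log axis for the 9 genes, ordered by the control mean, with a point per library and a line at the mean. Neurog3 goes from the third position in controls to the range of Sox4 in β-tetO-NICD islets, and Sox11 from the last to the range of Mycl and Sox9.

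The genes did not rank the β-tetO-NICD libraries alike. Library 1 was highest for Neurog3 and Sox4 and lowest for Sox11, library 5 was highest for Sox11 and Sox9 and lowest for Aldh1a3, and library 4 was highest for Aldh1a3 and lowest for Myc. Notch1 was highest in library 2 at 1322 CPM and lowest in library 5 at 574 CPM, whereas Hes1 and Hey1 were highest in library 5 and lowest in library 1, as was Sox11. Among 12762 genes that averaged 50 or more normalized counts, Gpc6 and Mapk4 followed Neurog3 most closely, with root-mean-square differences of 0.23 and 0.25 in log2 CPM over the 8 libraries, each gene centered on its mean. Fbp2 and Cdo1 were closest to Sox11 (0.33 for each) and Tenm4 and P2rx6 to Aldh1a3 (0.34 and 0.38). These values describe likeness and carry no test.

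Further genes of these pathways were taken from lists. Of 22 tested genes of the Neurog3 cascade, 3 rose, among them Gadd45a, a stress-induced growth arrest gene, and Fev, an ETS factor of endocrine precursors, by 1.39 and 1.22 on the log2 scale (adjusted p = 0.0206 and 0.00705). None of the 22 fell by edgeR's test. At an unadjusted p under 0.05, 5 were higher and 6 lower. DESeq2 called 4 higher and 2 lower, and limma-voom 3 higher and 0 lower. The median of this list was −0.071. Of 20 tested pancreatic progenitor regulators, 1 rose, Hhex, a factor of the early pancreas that δ cells keep (log2 fold change 1.01, adjusted p = 0.0436), and 0 fell (1 lower at an unadjusted p under 0.05, 1 by DESeq2, 0 by limma-voom). Of 19 tested dedifferentiation and immaturity genes, Gc, the vitamin D-binding protein, and Cd81, a tetraspanin of immature β cells, rose by 2.62 and 1.14 on the log2 scale (adjusted p = 0.000159 and 0.00557), and 0 fell. At an unadjusted p under 0.05, 8 were higher and 0 lower. DESeq2 called 5 higher and 0 lower, and limma-voom 2 higher and 0 lower. The median of this list was 0.41. The other 8 tested SOX genes gave 0 calls by edgeR and by limma-voom (1 higher at an unadjusted p under 0.05 and by DESeq2). In the 5 libraries without Y-linked counts, 0 genes of the cascade and progenitor lists and 1 of the dedifferentiation list rose. Over all genes tested 6.76% were called in either direction, against 3 of 22, 1 of 20, 2 of 19 and 0 of 8 in these 4 lists, and the differences were not tested.

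**Figure D5:**
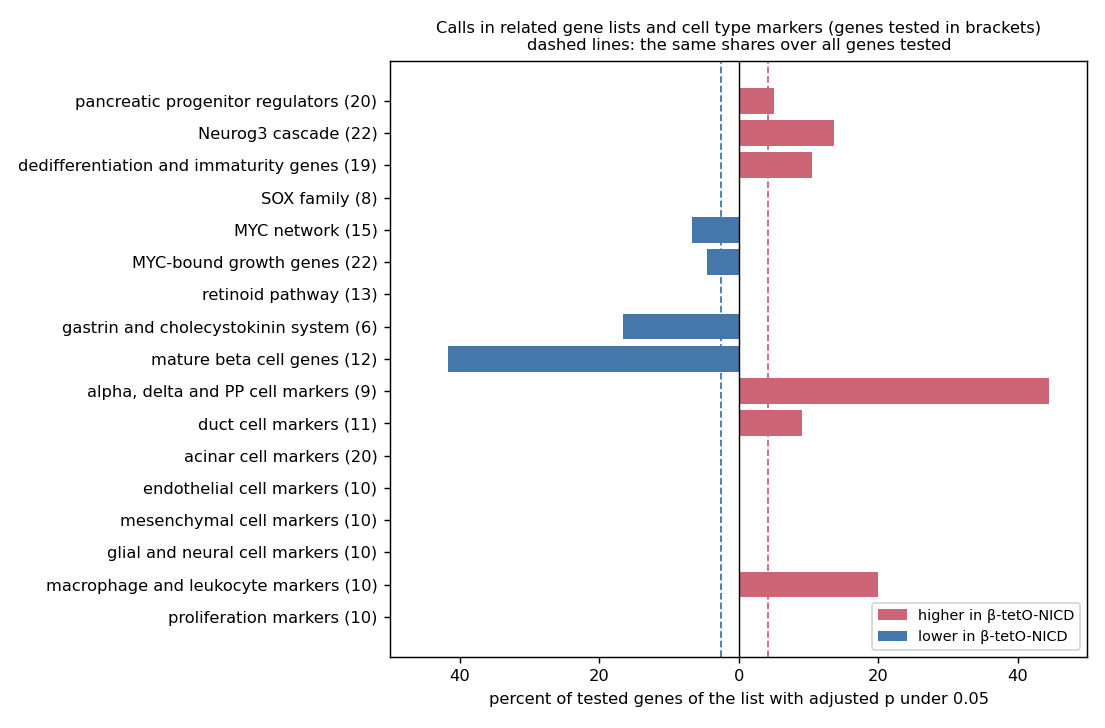
Percent of the tested genes of each list called higher (right) or lower (left) in β-tetO-NICD islets by edgeR's test, with the number tested in brackets and dashed lines for all genes tested, 4.19% higher and 2.57% lower. Of the mature β cell genes 5 of 12 were called lower, and of the markers of α, δ and PP cells 4 of 9 were called higher.

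Markers of other islet cells differed beside the members. The summed level of 9 markers of α, δ and PP cells ranged from 25426 to 53178 CPM among controls and from 68673 to 90650 CPM among β-tetO-NICD libraries. Most of this sum was Gcg, the glucagon gene, which averaged 22653 CPM in controls and 61254 CPM with NICD (adjusted p = 0.0622), while Ppy, the PP cell hormone gene, differed by −0.78 on the log2 scale (adjusted p = 0.254). Of the 9 markers 4 rose, beside 4.19% of all tested genes. Among them were Irx1, Irx2 and Hhex, the last of which also stands in the progenitor list. At an unadjusted p under 0.05, 8 of the 9 were higher, DESeq2 called 7 higher and limma-voom 6, with 0 lower in each. None of the 9 was called with the length trend as a covariate or in the 5 libraries without Y-linked counts. Mature β cell genes were present in every library, with a summed level of 158749 to 198747 CPM against 72895 to 172394 CPM. Of the 12, 5 fell, where 2.57% of all tested genes did. Called lower were 3 under the length trend as a covariate, 2 in the 5 libraries without Y-linked counts and 8 under the length offset. Over all genes these fits called 142, 30 and 683 lower. None of the 12 was higher by edgeR, at an unadjusted p under 0.05, by DESeq2 or by limma-voom. Macrophage and leukocyte markers summed to 157 to 202 CPM against 235 to 327 CPM. Of 10 tested, Cd14 and C1qa were called higher, where 4.19% of all tested genes were. C1qa alone went from 77.6 to 150.4 CPM, Itgam differed by −1.15 on the log2 scale (adjusted p = 0.140), and the median of the list was 0.080. The acinar list, 61361 to 210008 CPM across all libraries, gave 0 calls of 20 by edgeR, at an unadjusted p under 0.05 and by the other tools. All 9 α, δ and PP cell markers and all 10 macrophage and leukocyte markers passed the count minimum. The part of α, δ and PP cells and of macrophages in the levels of Neurog3, Sox11 and Aldh1a3 was not tested.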

How the data were processed

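The authors made stranded poly(A) libraries from islets, assigned reads to GRCm38 transcripts with Kallisto and deposited whole-number counts per gene symbol, without normalization. The Kallisto version and annotation release are not given in the sources used here. A second deposited table of fold changes and p values holds the authors' own limma comparison and was not used. The counts were fitted with edgeR 4.0.16 in R 4.3.3 (glmQLFit and glmQLFTest, TMM, no covariate), on genes that reached 10 counts in 4 or more of 8 libraries, with Benjamini-Hochberg adjustment and a threshold of 0.05. Standard errors are the log2 fold change divided by the root of the F statistic. Log2 CPM used a prior count of 2. DESeq2 1.42.0 and limma-voom (limma 3.58.1) were alternatives, beside other normalizations, filters, covariates and subsets. No 2 libraries of a group agreed within sampling noise (chi-square of at least 31.5 per gene). Replicates are separate mice by their labels. In simulated counts with 195 changed genes among 14925 tested, edgeR recovered 38.9% of 2-fold and 91.4% of 4-fold changes with 8.39% false calls, DESeq2 57.8% and 96.2% with 24.6%, and limma-voom 34.4% and 89.5% with 8.09%. Totals of at least 21701223 counts place a gene at 1 CPM well above the floor of 3 counts, while Gast lay near it. Positions and lengths are from GENCODE M21 on GRCm38, and 97.2% of tested genes had a length. The members and lists were chosen with earlier results of these data known. Named genes are the 9 members, their paralogs, up to 4 called genes per list and, for each called member, the 2 genes most like it. Fam241b was added after its overlap with Neurog3 was seen. The Y-linked split used Eif2s3y and Ddx3y alone, since Kdm5d and Uty had reads in every library. Protein sequences were not used here. Some genes of the lists are counted but not reported here by name.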

Additional observations from a re-analysis of the deposited data

Results flagged for a closer look

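In 38 groups of 4 libraries (9 genes, 9 marker lists and the total counts, by group), the distance of the highest or lowest library from the next was taken as a share of the group's range, and 3 exceeded the limit of Dixon's test, 0.829, where chance gives about 1.9. Aldh1a3 was low in control 3 (share 0.847, 0.989 CPM against 2.58 to 2.87 CPM), and without this control its log2 fold change was 1.43 (adjusted p = 0.0527, edgeR). The summed α, δ and PP cell markers were high in control 3 (share 0.885, 53178 CPM against 25426 to 28608 CPM). The summed acinar markers were high in control 1 (share 0.908, 146031 CPM against 74558 to 81139 CPM).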

How the results depend on the processing

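Of the 9 genes, 3 were called higher and 0 lower. DESeq2 called 1 lower (Myc), and so did the length offset, which called 5 higher, and the fit without β-tetO-NICD library 1. Leaving out each library in turn gave 2 to 4 higher and 0 to 1 lower. The 5 libraries without Y-linked counts gave 0 higher. Of the 3 with them 1 was β-tetO-NICD, so calls from these are not given. The log2 fold changes there were 1.64 for Neurog3, 1.47 for Sox9, 0.34 for Sox4, 3.46 for Sox11, 0.42 for Aldh1a3, 0.63 for Mycl and −0.71 for Myc. Over all genes, 632 were higher and 388 lower, against 1495 and 1244 with DESeq2, 293 and 126 with the duct marker level as a covariate, 74 and 30 without Y-linked counts, and 3382 and 3344 in the libraries with them. Y-linked counts as a covariate left 257 lower and the length offset 683 lower. With the length trend as a covariate, chosen after seeing the data, the counts were 288 and 142. Leaving out each library gave 222 to 2423 higher, the ends without β-tetO-NICD libraries 2 and 1, and 97 to 2531 lower. Why these counts moved was not tested.

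The replicate number was settled for numbers 1 and 2 of each group, and deviations of same-numbered libraries correlated at 0.276 and −0.0901. These 2 values are too few to tell whether such libraries share more than a number. With the replicate block on these 4 libraries 340 genes were higher and 2 of the 9, Neurog3 and Sox11, were called. Without the block, added after seeing the data, 41 were higher and 10 lower, and 0 of the 9 were higher. Sox9 turned to −0.16 with the block and −0.043 without it. No other tested gene of the 9 changed sign in any alternative. Upper-quartile normalization moved the median of all genes by 0.077 on the log2 scale, and the other scalings by less. Depth limits Gast, with at most 14 counts in a library.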
